A study of Mus musculus with 8 samples.

Results

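Cytosolic ribosomal protein genes and their paralogs were followed in RNA-seq libraries of spermatogonia, the mitotic male germ cells. The cells came from Control mice and from mice with a conditional knockout (KO) of the histone demethylase KDM1A. Members were all genes whose symbol has the form Rpl, Rps, Rpsa or Rplp with its number, without the kinases named Rps6k and without 82 copies named as pseudogenes. A mean of at least 1 FPKM over all libraries was required, FPKM being fragments per kilobase of transcript, scaled to the fragments of the library. All 87 genes of that form passed, out of 17589 genes in the table and 13483 with such a mean. They comprised 76 canonical proteins, of which 31 belong to the small (40S) subunit, 42 to the large (60S) subunit and 3 to the stalk of the large subunit. Beside these stood 8 paralogs, the Rps3a copies Rps3a2 and Rps3a3, and Rps19bp1, whose symbol has the form but which encodes a binding partner of a ribosomal protein. No member was listed at 0 in any library.

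Libraries came from 4 KDM1A KO samples and 4 Control samples of C57BL/6 mice at 6 dpp (days post partum). Every mouse carried the GOF/deltaPE-Oct4/GFP reporter, an Oct4-driven green fluorescent protein, and the cells were sorted for that fluorescence. The protocol text calls the KO conditional, without naming in the sources used here the Cre line that made it. The labels give each library its own identifier without saying whether libraries came from separate animals, so the p-values cover the spread among libraries, and part of it may be technical.

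A ribosome is built from ribosomal RNA and a copy of nearly every canonical protein, with several copies of the acidic stalk proteins. The genes of these proteins are spread over many chromosomes and are among the most abundantly transcribed in dividing cells, and their messenger RNAs share a run of pyrimidines at the 5′ end through which mTOR and LARP1 control their translation. A few mammalian proteins have a second gene, often a retrotransposed copy, and some of these copies are used in particular tissues. RPL10L and RPL39L are known from testis, where they stand in for RPL10 and RPL39, whose genes lie on the X chromosome that is silenced in meiosis.

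Of the 8 pairs of paralog and canonical gene compared below, Rpl39l and Rpl39 had the largest difference in ratio between KO and Control, 2.03-fold. Their coding sequences are therefore shown, though Rpl39l by itself was not called. RPL39 is a very small, basic protein of the peptide exit tunnel. Rpl39 (ENSMUSG00000079641) lies on the minus strand of chromosome X from 37082520 to 37085402, and Rpl39l (ENSMUSG00000039209) on the plus strand of chromosome 16 from 10170226 to 10174911, as GENCODE M21 places them on GRCm38 (mm10). Both coding sequences have 153 bases, without the stop codon. They are the same at 130 positions, and capitals mark the 23 positions at which they differ.
Rpl39: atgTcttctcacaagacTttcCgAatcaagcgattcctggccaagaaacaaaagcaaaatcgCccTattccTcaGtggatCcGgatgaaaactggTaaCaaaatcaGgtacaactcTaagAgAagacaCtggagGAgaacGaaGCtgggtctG
Rpl39l: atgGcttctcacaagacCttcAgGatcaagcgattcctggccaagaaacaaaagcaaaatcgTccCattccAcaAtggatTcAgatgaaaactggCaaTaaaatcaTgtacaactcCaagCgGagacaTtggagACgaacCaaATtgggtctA
The longest stretch without a difference was 38 bases. Reads that fall wholly within such a stretch cannot be given to a gene by sequence alone. The sources used here do not give the read length. How far the division between Rpl39 and Rpl39l rests on the authors' transcript estimation was therefore not tested.

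The libraries were checked against their labels and for ones that stand apart. Kdm1a averaged 15.1 ± 1.49 FPKM in KO and 61.9 ± 20.2 FPKM in Control (SD, n = 4 each; limma adjusted p = 6.88e-05). The depth that the steps of low FPKM give was 45250000 to 62750000 fragments in KO and 60750000 to 67250000 in Control. Germ cell markers (Ddx4, Dazl, Tex101, Mael) summed to 943 to 1115 FPKM in KO and 841 to 1031 FPKM in Control, and those of undifferentiated spermatogonia to 231 to 295 FPKM in KO and 395 to 474 FPKM in Control. Summed Sertoli markers lay between 18.3 and 45.6 FPKM in KO and between 13.3 and 41.2 FPKM in Control, with Sox9 under 1 FPKM, and endothelial markers were at 11.0 to 11.6 FPKM in KO and 3.55 to 4.75 FPKM in Control. Only 2 of 6 erythroid markers had values, which summed to 1.603 to 2.495 FPKM in KO and 0.282 to 0.760 in Control. Of 5 Leydig markers 1 had values, and of 6 macrophage and blood markers 1. Those genes reached at most 2.28 FPKM in KO and 2.36 in Control. The part of these cell types in the results below was not tested. In bulk RNA, fewer cells of a type and less RNA per cell cannot be told apart. The microRNA gene Mir5105 took 37.6% ± 10.3 of all FPKM in KO and 67.1% ± 6.98 in Control, so any scaling to the total moves every other gene. KO replicate 2 stood apart, with 1642 transcript entries listed at 0 against 506 to 734 in the other 7 libraries. Counts of adjusted calls on the deposited scale and ratios of the canonical and subunit sums are given with and without it. So are the adjusted p-values of the called members, while single genes of biogenesis, translation and regulation are given with it only.

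Ribosomal protein genes were among the most abundant of the cells. Of the 76 canonical genes, 59 were among the 100 genes with the highest mean FPKM and 74 among the first 200. Rps28 was highest with a mean of 2175 FPKM over the 8 libraries, followed by Rps24 with 1888, Rps15a with 1879, Rplp1 with 1468 and Rps12 with 1431. Rpl39 was the lowest canonical gene with 126.1 FPKM, and Rps4x, an X-linked 40S gene, followed with 136.1. Above them came Rpl21 with 243.2, Rpl29 with 291.9, Rpl37 with 337.1 and Rpl31 with 337.2. Proteins present in equal number in the ribosome were thus spread over a wide range of FPKM. Their main transcripts are short, 250 to 1938 bases with a median of 681, and FPKM of short transcripts lean on the length correction, so the order between genes is less certain than the comparison of a gene between libraries.

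The canonical genes differed mainly by library and not by group. Their FPKM summed to 54910, 86550, 58150 and 55220 in KO replicates 1 to 4, against 50630, 47850, 62600 and 63400 in Control replicates 1 to 4. KO replicate 2 lay far above the other 7 libraries, among which KO and Control overlapped. The means were 63710 ± 15300 in KO and 56120 ± 8031 in Control, a ratio of 1.135, which was 0.9995 without KO replicate 2. The same library was the highest of the 8 in 82 of the 87 members (94.3%), while it was the highest in 37.0% of all genes tested. The exceptions were Rps18, Rpl29 and Rplp0, highest in Control replicate 3, and Rps2 and Rps3a3, highest in Control replicate 4. Whether the depth or the zeros of that library bear on this was not tested.

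**Figure D1:**
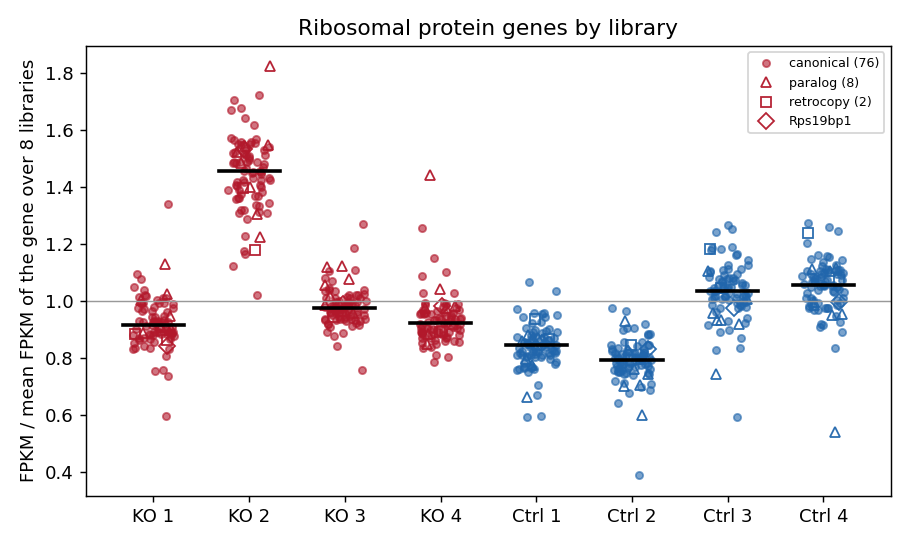
FPKM of each of the 87 members divided by its own mean over the 8 libraries, with 1 point per gene and library and the median of all members as a black bar (KO red, Control blue). The median is 1.455 in KO replicate 2 and lies between 0.7935 and 1.058 in the other 7 libraries.

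The sums of the subunits followed the same pattern over the libraries. The 40S genes summed to 31490 ± 7356 FPKM in KO and 27450 ± 4046 in Control, a ratio of 1.147, and the 60S genes to 28290 ± 6847 FPKM in KO and 25040 ± 3589 in Control, a ratio of 1.13. Without KO replicate 2 the ratios were 1.014 for the 40S genes, 0.994 for the 60S genes and 0.931 for the stalk genes. The 40S sum divided by the 60S sum was 1.131, 1.104, 1.097 and 1.127 in KO against 1.099, 1.085, 1.108 and 1.091 in Control, and the groups overlapped. The 3 stalk genes, Rplp0, Rplp1 and Rplp2, which recruit elongation factors, held 6.14% ± 0.210 of the canonical sum in KO and 6.50% ± 0.226 in Control, also with overlap. These sums are descriptions without a test.

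Gene by gene, few members were called. With limma on log2(FPKM + 1) over 13483 genes and Benjamini-Hochberg adjustment, 5 of the 87 members were higher in KO, which is 5.75%, where 25.3% of all genes tested were higher. None was lower, where 12.1% of all genes were lower, and at an unadjusted p under 0.05 the counts were 9 higher and 0 lower (31% and 16% of all genes). The share of members called was thus below the background in both directions. A member that was not called is not thereby shown to be unchanged, since the KO libraries of the members were uneven. The 5 were the X-linked canonical genes Rpl39 and Rpl10 and the paralogs Rpl3l, Rpl10l and Rpl7l1. Without KO replicate 2 there were 4 higher and 0 lower (28.6% and 15% of all genes), Rpl10l being the gene lost. The count of higher members was 3 without Control replicate 1, Control replicate 2 or KO replicate 3 (19.7% to 20.6% of all genes). The count rests on the scaling: with every library set to an equal FPKM total 86 members were higher (71.2% of all genes, whose median log2 change was then 0.74), and with quantile normalization 17 were higher and 4 lower (19.7% and 19.6% of all genes).

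The median log2 change over the members was 0.17, against 0.09 over all genes tested. It was 0.17 for the 31 canonical 40S genes, 0.16 for the 42 canonical 60S genes and 0.12 for the stalk. Without KO replicate 2 the member median was 0.003 and that of all genes 0.08. The median coefficient of variation of the members was 24.5% in KO and 15.2% in Control, and that of all 695 genes averaging at least 100 FPKM was 18.1% in KO and 10.3% in Control. Rps20 of the small subunit had 858.4, 1454, 843.5 and 821.5 FPKM in KO and 671.3, 578.7, 750.4 and 765.7 FPKM in Control. Although its groups did not overlap, its change of 0.49 (SE 0.20) had a limma adjusted p of 0.0854. In all, 9 members had every KO library above every Control library and none the reverse, where 26.1% and 12.5% of all genes did. These 9 were the 5 called genes with Rps4x, Rps20, Rps12 and Rps25.

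**Figure D2:**
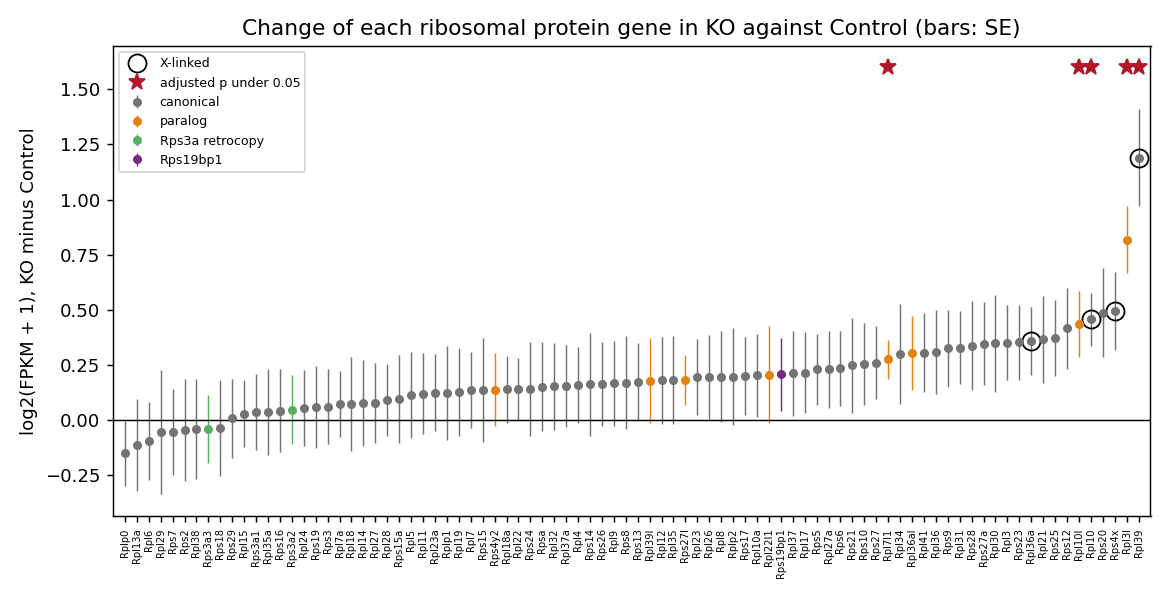
Log2(FPKM + 1) of KO minus Control for 86 of the members, ordered by size, with bars for the standard error. Most lie between 0 and 0.50, while Rpl39 stands at 1.19 and Rpl3l at 0.82; circles mark the 4 X-linked genes and stars the 5 genes with an adjusted p under 0.05.

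Among the X-linked canonical genes, Rpl39 rose most. It had 169.0, 207.1, 160.2 and 158.4 FPKM in KO against 75.3, 48.9, 74.8 and 115.3 FPKM in Control. Every KO library lay above every Control library. Means were 173.7 ± 22.8 in KO and 78.6 ± 27.4 in Control, 2.21-fold higher (log2 change 1.19, SE 0.22, limma adjusted p = 0.00277), and without KO replicate 2 the log2 change was 1.103 with an adjusted p of 0.00505. Nearly all of it lay in the protein-coding entry of 612 bases, with 172.4 ± 22.7 FPKM in KO and 78.0 ± 27.0 in Control. The Control libraries of Rpl39 were also the most uneven of any member, with a coefficient of variation of 34.9%.

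Rpl10 encodes a 60S protein that joins last, in the cytoplasm, and is needed before the subunits can pair. The gene lies on the plus strand of chromosome X from 74270812 to 74273135 and had 409.3, 500.1, 413.9 and 406.2 FPKM in KO, against 315.8, 265.2, 325.7 and 353.7 FPKM in Control. The groups did not overlap, and it was 1.37-fold higher (log2 change 0.46, SE 0.12, limma adjusted p = 0.0151). Without KO replicate 2 the log2 change was 0.39 with an adjusted p of 0.0139. Its 3 most abundant entries all had higher means in KO, the first with 250.0 ± 22.2 FPKM in KO and 182.7 ± 23.7 FPKM in Control.

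The other pair of X-linked genes missed the threshold. Rps4x of the small subunit had 134.5, 213.8, 150.2 and 139.8 FPKM in KO and 104.2, 87.1, 134.0 and 125.1 FPKM in Control, which did not overlap (log2 change 0.49, SE 0.18, limma adjusted p = 0.0529; 0.35 and 0.0731 without KO replicate 2). Rpl36a, a 60S gene, had 423.2, 592.4, 417.2 and 401.9 FPKM in KO and 312.3, 310.1, 406.8 and 393.7 FPKM in Control, with overlap (log2 change 0.36, SE 0.16, limma adjusted p = 0.10; 0.23 and 0.137 without KO replicate 2). Both passed with libraries set to equal totals, with quantile normalization, with small RNA genes removed and with scaling to the canonical sum.

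Together the X-linked genes held 2.069%, 1.749%, 1.963% and 2.004% of the canonical sum in KO, against 1.595%, 1.486%, 1.504% and 1.558% in Control. The groups did not overlap, and this share does not depend on the scaling between libraries. The 72 autosomal canonical genes had a median log2 change of 0.16, from -0.15 to 0.49, and none of them was called. Among all genes tested 25.3% were higher and 12.1% lower, with a median log2 change of 0.09. Of 605 X-linked genes outside the members, 305 (50.4%) were higher in KO, 26 (4.30%) were lower, and their median log2 change was 0.36. Of the X-linked canonical genes, Rpl39 and Rpl10 were called higher and Rps4x and Rpl36a were not, which is near that share. Higher values in KO were thus common among X-linked genes outside the members as well.

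**Figure D3:**
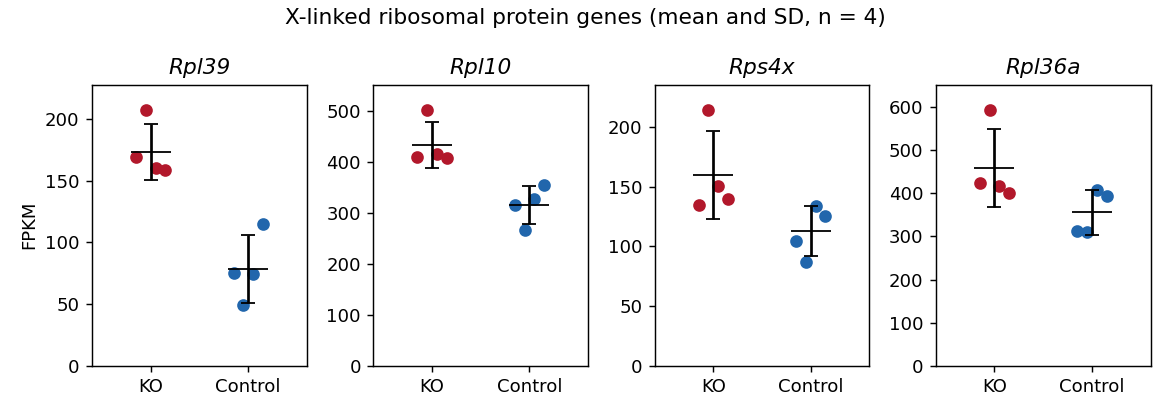
FPKM of the X-linked canonical genes Rpl39, Rpl10, Rps4x and Rpl36a, with 1 point per library, and the mean and SD of 4 libraries in black (KO left, Control right, axes from 0). The KO and Control points of Rpl39, Rpl10 and Rps4x do not overlap, while the lowest KO value of Rpl36a, 401.9, lies below its highest Control value, 406.8.

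The paralogs differed widely in level. Rpl22l1, the paralog of the RNA-binding 60S protein RPL22, was the highest, with 351.0 ± 103.4 FPKM in KO and 301.9 ± 70.4 in Control. Rps4y2, which GENCODE M21 names Rps4l and lists as a transcribed processed pseudogene on chromosome 6, had 258.9 ± 58.2 FPKM in KO and 233.4 ± 36.8 in Control. Rpl36al had 248.9 ± 65.1 FPKM in KO and 198.0 ± 22 in Control, and Rpl39l had 193.6 ± 55.3 in KO and 168.4 ± 29.5 in Control. Rps27l, known in human cells as a target of p53, had 155.5 ± 25.2 FPKM in KO and 135.9 ± 6.27 in Control. None of these 5 passed the test, with limma adjusted p from 0.183 to 0.547.

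The other 3 paralogs were higher in KO. Rpl3l, known as the striated muscle form of the 60S protein RPL3, had 3.96, 6.38, 3.69 and 5.05 FPKM in KO against 2.32, 2.10, 2.60 and 1.89 FPKM in Control. Its groups did not overlap and it was 2.14-fold higher, though low beside every other member (log2 change 0.82, SE 0.15, limma adjusted p = 0.00275). Without KO replicate 2 its log2 change was 0.69 with an adjusted p of 0.00194. Markers of muscle-like peritubular cells (Acta2, Myh11, Des, Cnn1) summed to 2.62 to 4.24 FPKM in KO and 2.47 to 4.98 FPKM in Control. Of these, Cnn1, Myh11 and Des were under 1 FPKM. Which cells carried Rpl3l was not tested.

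Rpl10l, the testis copy of Rpl10 on the minus strand of chromosome 12, had 128.0, 185.6, 140.6 and 123.0 FPKM in KO against 99.5, 87.9, 116.8 and 119.2 FPKM in Control. No value overlapped, but the nearest KO and Control libraries were close, and the change of 0.44 (SE 0.15) had a limma adjusted p of 0.0448, and the call was lost without KO replicate 2 (0.0526), KO replicate 3 (0.0897), Control replicate 1 (0.105), Control replicate 2 (0.117) or Control replicate 3 (0.0578). Rpl7l1, which works in the assembly of the large subunit, had 50.1, 61.1, 55.9 and 52.1 FPKM in KO against 43.5, 41.3, 47.9 and 47.5 FPKM in Control. It was 1.22-fold higher without overlap (log2 change 0.28, SE 0.09, limma adjusted p = 0.0328; 0.22 and 0.0377 without KO replicate 2), and the call was lost when KO replicate 3 or 4, or Control replicate 1 or 2, was left out (adjusted p from 0.0519 to 0.0861).

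Dividing each paralog by its canonical partner within a library removes any scaling that a library's genes share. The ratio of Rpl39l to Rpl39 was 0.950, 1.33, 1.11 and 1.01 in KO, against 2.07, 2.75, 2.44 and 1.75 in Control. No KO library reached the lowest Control ratio. The means were 1.101 ± 0.167 in KO and 2.25 ± 0.435 in Control (n = 4 each), with an exact two-sided permutation p of 0.0286, the smallest that 70 assignments can give, and an adjusted p of 0.0762 over 8 pairs. Rpl39l itself differed by a log2 change of 0.18 (limma adjusted p = 0.501), while its partner Rpl39 was the gene that rose. Control libraries thus held more Rpl39l than Rpl39 on the FPKM scale, and KO libraries about as much of either.

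The ratio of Rps4l to Rps4x was 1.65, 1.62, 1.61 and 1.62 in KO and 2.00, 2.25, 1.92 and 2.18 in Control. Here too every KO ratio was lower, and the 4 KO libraries were nearly alike (exact permutation p = 0.0286, adjusted p = 0.0762 over 8 pairs, n = 4 each). The ratio of Rpl3l to Rpl3 was 0.00861, 0.01, 0.00836 and 0.0131 in KO and 0.00700, 0.00654, 0.00622 and 0.00449 in Control, every KO ratio being higher, with the same p-values. For Rpl10l over Rpl10, Rpl22l1 over Rpl22, Rpl7l1 over Rpl7, Rpl36al over Rpl36a and Rps27l over Rps27 the groups overlapped, with exact permutation p from 0.257 to 0.829 (n = 4 each). No pair passed after adjustment over the 8 pairs, and with 4 libraries a group none of them could have passed alone.

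**Figure D4:**
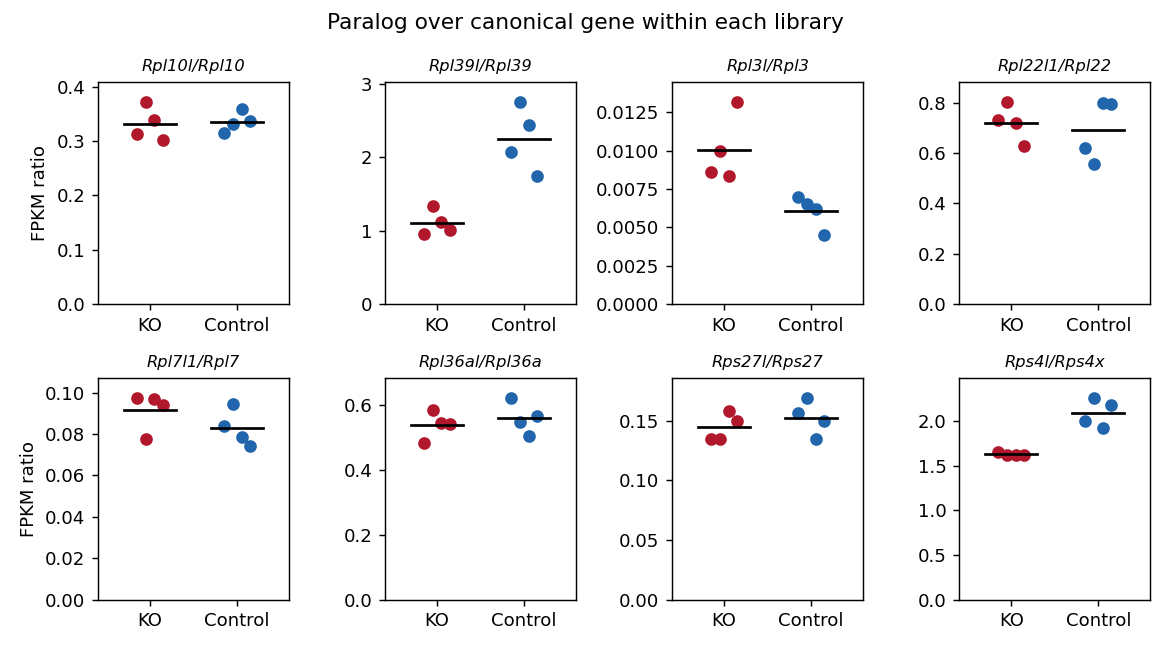
FPKM of a paralog divided by that of its canonical gene, within each library, for 8 pairs; points are libraries and black bars are means (KO left, Control right, axes from 0). KO and Control separate in Rpl39l/Rpl39, Rpl3l/Rpl3 and Rps4l/Rps4x, and overlap in the other 5 pairs; the row of the table named Rps4y2 is shown as Rps4l.

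Rpl10 and Rpl10l kept their proportion, with a ratio of 0.332 ± 0.0306 in KO and 0.336 ± 0.0179 in Control. The 8 paralogs summed to 2.22% ± 0.0352 of the canonical sum in KO and 2.12% ± 0.0396 in Control, with no overlap. Coding sequences of the pairs were alike at 60.3% of aligned bases for Rpl7l1 and Rpl7 up to 87.7% for Rpl36al and Rpl36a, and 84.4% for Rpl10l and Rpl10. Rps3a2 and Rps3a3, processed pseudogenes in GENCODE M21, were alike with Rps3a1 at 99.5% and 98.9% of bases, so reads of Rps3a1 cannot be told from theirs over long stretches. Rps3a2 had 77.1 ± 18.9 FPKM in KO and 73.5 ± 7.98 in Control, Rps3a3 had 15.2 ± 2.15 in KO and 15.8 ± 3.47 in Control, and their source Rps3a1 had 1018 ± 229 in KO and 981.1 ± 102 in Control, none of which passed the test.

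Since whole libraries shifted together, the members were also compared as shares of the canonical sum, an alternative chosen after seeing the data. On that scale 12 members were higher and 4 lower (limma, adjusted p under 0.05), 13.8% and 4.6% of members, where 11.3% and 8.57% of all genes were. These shares lie near or below the background. The divisor is the sum of the canonical genes themselves, which put the median log2 change of the members at 0.003. A rise in the share of some canonical genes brings a fall in others. Members and all genes are therefore not compared on equal terms here, nor in the share counts below. Rps20 made up 1.55% ± 0.101 of the sum in KO and 1.24% ± 0.0605 in Control (adjusted p = 0.00668), and Rps12 2.59% ± 0.0857 in KO and 2.18% ± 0.125 in Control (adjusted p = 0.0103). The other genes higher on this scale were Rpl39, Rps4x, Rpl36a, Rpl3l, Rpl10l, Rps23, Rps25, Rps27a, Rps28 and Rps9.

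Lower shares were found for Rplp0, the scaffold of the stalk, with 1.44% ± 0.112 in KO and 1.80% ± 0.114 in Control (adjusted p = 0.0135), and for Rpl6 with 0.649% ± 0.0193 in KO and 0.777% ± 0.0166 in Control (adjusted p = 0.00883). Rpl13a and Rps7 were lower as well. On the deposited scale Rplp0 had 907.3 ± 139 FPKM in KO and 1003 ± 103 in Control (limma adjusted p = 0.458), and Rpl6 414.0 ± 104 in KO and 436.3 ± 62.8 in Control (limma adjusted p = 0.705). The shares of Rplp0, Rpl6, Rpl13a and Rps7 in every KO library lay below those in every Control library. In all, 9 members did so (10.3%, where 14.5% of all genes did), and 15 had every KO share above every Control share (17.2%, where 12.9% of all genes did).

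The members' 342 transcript entries were mostly of protein-coding transcripts by FPKM. Protein-coding entries held 90.3% ± 0.181 of member FPKM in KO and 90.4% ± 0.247 in Control. Retained-intron entries held 3.94%, 4.34%, 4.10% and 4.19% in KO against 3.59%, 3.64%, 3.72% and 3.82% in Control, with no overlap between the groups. Entries not found in GENCODE M21 held 1.81% to 2.00% in KO and 2.08% to 2.47% in Control. Processed pseudogene entries held 0.140% to 0.144% in KO and 0.152% to 0.162% in Control, so both were lower in KO without overlap. Shares of these types over all genes were not computed, so a shift of the members cannot be told from one of the whole table. Rpl29, one of the few members that was not highest in KO replicate 2, had 174.4, 297.7, 346.1 and 321.5 FPKM in KO and 173.0, 284.9, 370.1 and 367.6 FPKM in Control. Replicate 1 was the lowest library of either group, and the log2 change was -0.05 (limma adjusted p = 0.898). Its entry of 710 bases had 37.4 FPKM in KO replicate 1 and 31.9 in Control replicate 1, and 120.9 in KO replicate 4 and 110.6 in Control replicate 4. The value named Rpl24 also held 1 entry that GENCODE M21 gives to the neighbouring gene Zbtb11, with 12.9 ± 3.35 FPKM in KO and 13.6 ± 1.65 in Control.

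The pyrimidine run typical of these genes was looked for in RefSeq start regions on GRCm38.p6. A C followed by at least 5 bases that are C or T, read on the gene's strand from 10 bases before to 50 after the annotated start, was found in 48 of 56 canonical genes with an entry (85.7%), in 53 of 64 members (82.8%) and in 42.9% of 27025 genes in all. The starts of Rpl39 (chrX:37085193-37085242, minus strand) and Rpl39l (chr16:10170208-10170257, plus strand) show it in both genes of this pair, from 20 bases before to 30 after the start, with capitals for each such run.
Rpl39 start: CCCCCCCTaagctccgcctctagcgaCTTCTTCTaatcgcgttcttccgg
Rpl39l start: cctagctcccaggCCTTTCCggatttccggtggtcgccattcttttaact
The Rpl39l run lies wholly before the annotated start. Of the Rpl39 runs, the later lies after the start and the earlier outside the searched window. A match describes these letters only, and the start in use in these cells was not measured.

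Genes that build, use and regulate ribosomes were counted in the same fit. Of 103 tested genes of ribosome biogenesis, 21 (20.4%) were higher and 7 (6.80%) lower, against 25.3% and 12.1% of all genes, with a median log2 change of 0.12. Wdr12, part of the PeBoW complex of 60S assembly, had 49.1 ± 2.99 FPKM in KO and 29.4 ± 0.554 in Control (limma adjusted p = 7.22e-05). Ltv1, an assembly factor of the small subunit, had 72.2 ± 5.41 FPKM in KO and 46.6 ± 3.23 in Control (limma adjusted p = 0.000471). Taf1b, of the RNA polymerase I initiation factor, rose 1.74-fold, and Nol9, a polynucleotide kinase of ribosomal RNA processing, fell to 35.0 ± 0.947 FPKM in KO, against 45.6 ± 1.47 in Control. Without KO replicate 2 the counts were 22 higher and 15 lower (28.6% and 15% of all genes). The count of lower genes was 2 without KO replicate 3, 3 without KO replicate 4, Control replicate 2 or Control replicate 3, and 4 without Control replicate 1. In these fits 8.68% to 10.5% of all genes were lower.

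Of 64 tested translation factors, 9 (14.1%) were higher and 6 (9.38%) lower, against 25.3% and 12.1% of all genes. The initiation factors Eif2a, with 48.6 ± 0.214 FPKM in KO and 32.8 ± 3.33 in Control, and Eif2s1, with 44.9 ± 2.60 in KO and 32.1 ± 2.10 in Control, were higher, as was the termination factor Gspt2. Eef2k, the kinase that inhibits elongation factor 2, fell to 20.5 ± 2.10 FPKM in KO, against 33.5 ± 4.73 in Control (limma adjusted p = 0.00161). Without Control replicate 1 the counts were 5 higher and 3 lower, and without Control replicate 3 they were 8 and 2. Without KO replicate 3 they were 6 and 3, and without KO replicate 4 also 6 and 3. In these fits 19.7% to 22.2% of all genes were higher and 8.68% to 9.41% lower. Leaving out KO replicate 2 gave 9 higher and 8 lower (28.6% and 15% of all genes). The subunit genes Fau and Gnb2l1, whose symbols have another form, were not called (limma adjusted p = 0.821 and 0.490).

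Genes listed as regulators of growth and translation moved in a few cases. The list holds the Rps6k kinase genes, whose part in regulating ribosomal protein genes was not tested. It also holds Larp1, which was counted among the translation factors as well. Of 17 tested, 1 was higher (5.88%) and 4 were lower (23.5%), against 25.3% and 12.1% of all genes. Without KO replicate 2, 2 were higher and 4 lower (28.6% and 15% of all genes). Mtor, the growth kinase, had 27.7, 23.0, 29.4 and 26.8 FPKM in KO and 44.3, 45.4, 41.0 and 36.5 FPKM in Control (limma adjusted p = 0.00123). Its partner Rptor had 10.4 ± 1.23 FPKM in KO and 15.2 ± 1.65 in Control (limma adjusted p = 0.00632). Larp1, which binds the pyrimidine run of ribosomal protein mRNAs, had 47.0, 39.3, 43.0 and 48.5 FPKM in KO and 69.8, 61.6, 61.8 and 61.9 FPKM in Control (limma adjusted p = 0.00167). All KO values of Mtor and of Larp1 lay below all Control values. The kinase gene Rps6ka1 was lower as well, with 23.3 ± 1.58 FPKM in KO and 31.6 ± 2.30 in Control, and Rps6kc1 was higher, with 12.0 ± 3.17 in KO and 6.68 ± 1.66 in Control.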

How the data were processed

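RNA of 8 libraries, 4 KO and 4 Control, was analysed. The authors deposited a table of FPKM with 45550 transcript entries, made with TopHat, Bowtie, Cufflinks and Cuffdiff on the mm10 build per the submitters' processing notes; the sources used here give neither versions nor read length. Being estimates scaled to library size, FPKM were not put into a count model. Entries were summed to 17589 genes, of which 17257 were found in GENCODE M21, which gave positions and transcript types.

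Genes averaging 1 FPKM or more were tested on log2(FPKM + 1) with limma 3.58.1 in R 4.3.3 (lmFit, eBayes with an intensity trend, group only, two-sided). Calls used p-values adjusted by Benjamini-Hochberg over all genes tested, with a threshold of 0.05. Log2 changes are KO minus Control on this scale, which understates changes of low genes, and folds are ratios of mean FPKM. Ratios of paralog to canonical FPKM were compared by exact permutation. Depth was taken as the fragment number that made most low FPKM of genes with a single entry whole multiples of 1 fragment, with 62.3% to 67.2% of values within 0.1 of a whole number, against 20% by chance.

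Named genes were the paralogs and their partners, the X-linked genes, the 6 highest and 6 lowest canonical genes, called members and up to 4 called genes of each list. Rps20, Rps25, Rplp0, Rpl6 and others named for their shares, the Rps3a copies, Rpl24, Rps18, Rps2 and Mir5105 fall outside this rule and were picked with their values known. The values of 2 genes under the rule and the lists are not reported here singly. The members and lists were chosen with earlier results of these data known. Rps3a2 and Rps3a3 were set apart from the canonical genes once the annotation showed them to be pseudogenes.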

Additional observations from a re-analysis of the deposited data

Results flagged for a closer look

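KO replicate 2 lay far from the other 3 KO libraries in several results. Its canonical sum was 86550 FPKM, and the values that stood apart in the same library were 3063 for Rps28, 2854 for Rps24, 2263 for Rplp1, 1415 for Rps27, 630.3 for Rpl22, 592.4 for Rpl36a, 522.7 for Rpl37, 506.8 for Rpl31, 504.3 for Rpl22l1, 500.1 for Rpl10, 408.5 for Rpl21, 345.7 for Rpl36al, 345.1 for Rps4y2 and 275.5 for Rpl39l, all in FPKM. By the same criterion, Dixon's test at the 95% level within a group of 4, this library stood apart in 53 of the 87 members. Chance flags about 1 in 20 groups, and the members share a library, so these are not separate events. The ratio of Rpl7l1 to Rpl7 was low in KO replicate 2, at 0.0777, and the ratio of Rps4l to Rps4x was high in KO replicate 1, at 1.65, though the 4 KO values of that ratio lay within 1.61 to 1.65.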

How the results depend on the processing

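Directions and calls of Rpl39 held under every alternative run, and those of Rpl3l under all but the mean of at least 5 FPKM, which left it out, with log2 changes of 0.96 to 1.91 and 0.43 to 1.38. The 5 members higher in KO became 86 with equal totals (71.2% of all genes higher) and 17 with quantile normalization (19.7%). They became 12 with scaling to the canonical sum (chosen after seeing the data, 11.3%) and 10 with small RNA genes removed (16.7%). The count was 8 with protein-coding genes alone (22.8%), 8 with a length and GC correction (27.5%) and 3 with median-ratio scaling (17.7%). At an adjusted p under 0.01 it was 2, and the share of all genes is not given for that threshold. Leaving out each library gave 3 to 6 (19.7% to 28.6%). The 0 members lower became 4 with array weights (20.5% of all genes lower), with quantile normalization (19.6%) and with the canonical sum (8.57%). With small RNA genes removed 1 was lower (13.5%), and leaving out each library gave 0 (8.68% to 15%). Median-ratio scaling put the median log2 change of all genes at -0.04 and equal totals at 0.74. Rpl29 turned to 0.67 with equal totals, and the log2 ratio of canonical sums to 0.89, against 0.18 as deposited. Equal totals divided KO libraries by 0.616 to 0.972 and Control libraries by 0.937 to 1.55, which lifts KO against Control. Mir5105 held 29.4% to 52.7% of the FPKM total in KO and 61.3% to 77.1% in Control. Why Mir5105 differed, and what lay behind the shifts under the other settings, was not tested.

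Same-numbered libraries were not treated as pairs in the main fit. Correlations of their deviations from the group means were 0.22, -0.12, -0.13 and -0.09. Those of KO and Control libraries with different numbers ran from -0.33 to 0.25. Whether same-numbered libraries shared a litter or a batch was not tested. With the replicate number as a block 2 members were higher (22.1% of all genes), and 3 when length and GC were corrected as well (24.9%). With equal totals 90 biogenesis genes and 56 translation factors were higher and none lower, where 71.2% of all genes were higher and 1.07% lower. Rpl10 lost its call in 4 alternatives, Rpl10l in 12 and Rpl7l1 in 10. Among the 8 pairs, the log2 ratio Rpl10l/Rpl10 (-0.08 to 0.02) and the log2 ratio Rpl22l1/Rpl22 (-0.03 to 0.14) were the ones whose sign varied. Depth allowed every member to be measured in every library, while the 4 libraries a group limit the exact test to a p of 0.0286.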
